A study of Mus musculus with 4 samples.

Results

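The genes described here were 100 of the 24388 gene symbols in RNA-sequencing profiles of mouse spermatocytes with and without Np95. They carry RIKEN clone names with the prefixes 1700, 4921, 4930 or 4933, which were given to cDNA clones from testis libraries. They were chosen by their level, RPKM of at least 5 in any 2 of the 4 libraries, which counts reads scaled to gene length and to the size of the library. Of 848 symbols with these prefixes 748 lay below that level. One symbol, 4930447C04Rik, was left out by name, and a second named for leaving out, 4921515J06Rik, has no row in the table. The prefix 1700 was carried by 58 of the 100 genes, 4930 by 26, 4933 by 13 and 4921 by 3.

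Poly(A) RNA was profiled in 2 libraries of Np95 knockout spermatocytes and 2 libraries of control spermatocytes. Both groups were of the C57BL/6 strain, with an age label of 21 dpc that is not spelled out. The cells came from tubules dispersed with accutase and filtered through a mesh, and no sort is described, so each suspension can hold other testis cells. The header of the table calls the knockout columns cKO. The sources used here give no Cre driver and no genotype of the controls beyond that label. Whether the replicates of a group are separate animals is not said either, and p-values then cover only the spread between libraries, which may be technical.

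A RIKEN clone name marks a gene found as a cDNA before anything was known of its function, and many such genes still have no other name. The mammalian testis transcribes an unusually broad set of genes during meiosis and after it, among them long noncoding RNAs (lncRNAs), retrocopies of genes from elsewhere in the genome and members of the MAGE family, whose proteins bind ubiquitin ligases. Np95, encoded by Uhrf1, recognises hemimethylated DNA behind the replication fork and recruits the maintenance methyltransferase Dnmt1. During the pachytene stage of meiosis the X chromosome of spermatocytes is packed into the sex body and silenced.

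RefSeq matched all 100 genes, 94 by symbol and 6 by an older name. It calls 51 of them lncRNAs, 40 protein-coding and 9 transcribed pseudogenes. RNA of each of the 100 genes was detected in every library, with none listed at 0. Group means ran from 0.804 to 120.7 RPKM with a median of 7.37 in Np95 knockout libraries, and from 3.58 to 468 RPKM with a median of 13.9 in control libraries. RPKM here is divided by the whole gene span, introns included, so a level can be compared between libraries but depends on intron content when 2 genes are compared.

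The targeted gene itself had 1.87 and 1.48 RPKM in Np95 knockout libraries, against 3.11 and 3.29 RPKM in control libraries. Uhrf1, on chromosome 17, was thus 1.91-fold lower in knockout libraries, and its log2 fold change was -0.65 by limma (SE 0.10, adjusted p = 0.0031). RPKM here spans the whole gene and no source used here names the deleted exons, so the loss of those exons is not measured. From the steps between low RPKM values the libraries held about 11110000 and 4810000 read pairs in knockout replicates 1 and 2, and 5820000 and 12810000 in control replicates 1 and 2. Knockout replicate 2, the shallowest, gave an estimated 2.7 read pairs for the least covered of the 100 genes and a median of 145. In it 13 of the genes had under 20 read pairs, as did 2 in knockout replicate 1 and 0 in the control libraries.

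Marker genes of the cell types of the testis differed between the same libraries. All 16 tested Sertoli cell markers of 18 listed were called higher, and the list summed to 454.9 and 550.5 RPKM in knockout replicates 1 and 2, against 157.4 and 183.3 RPKM in control replicates 1 and 2. Spermatogonial markers summed to 26.7 and 28.1 RPKM in knockout libraries and 9.75 and 12 RPKM in control libraries, with 5 of 5 tested called higher. Leydig cell markers (5 of 6 tested called higher) summed to 60.6 and 52.3 RPKM in knockout libraries and 19.1 and 18.6 RPKM in control libraries, and macrophage markers (5 of 5 called higher) to 16.02 and 12.5 RPKM in knockout libraries and 5.11 and 6.47 RPKM in control libraries. For peritubular myoid cells, with 1 marker tested and called higher, the sums were 4.65 and 4.78 RPKM in knockout libraries and 2.54 and 2.71 RPKM in control libraries. Of 15 tested pachytene spermatocyte markers 14 were called lower and 1, Mybl1, higher, and the list summed to 946.8 and 709.4 RPKM in knockout libraries, against 2417 and 2384 RPKM in control libraries. Round spermatid markers, of which 6 of 8 tested were called lower, summed to 123.3 and 78.1 RPKM in knockout libraries and 376.6 and 369.5 RPKM in control libraries. Most of each of these sums was Dnajb3 alone, with 98.2 and 60.1 RPKM in knockout libraries and 319.1 and 312.5 RPKM in control libraries. Only 8 of the 19 listed round spermatid markers reached the level for a test, and Prm2, Akap4 and Catsper1 were listed at 0 in at least 1 library. Most of each Leydig cell sum was likewise Insl3, with 45.8 and 31.6 RPKM in knockout libraries and 11.65 and 13.05 RPKM in control libraries. The part of these differences in the results below was not tested, and in bulk suspensions fewer cells of a type and less RNA per cell cannot be told apart.

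Most of the RIKEN genes had less RNA in the knockout. By limma on log2(RPKM + 1), adjusted over all 9099 genes tested, 90 of the 100 were called lower and 5 higher at an adjusted p below 0.05, and 5 were not called. Among all genes tested 30.5% were called lower and 43.3% higher. Among the 3468 genes that met the same level rule of 5 RPKM in at least 2 libraries, 46.9% were called lower and 30.8% higher. The median log2 fold change of the 100 genes was -1.45, which is -1.59 relative to the median over all tested genes (0.14), and the median ratio of knockout to control mean RPKM was 0.315. For all genes at the level rule the median log2 fold change was -0.22. The median of the 100 stayed below 0 under each of the 3 other scalings between libraries, at -1.12 with equal RPKM sums, -1.64 with equal medians and -1.18 with quantile normalization.

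The level rule bears on these counts, because RPKM in both groups chose the genes. Of the 100, 54 passed it in all 4 libraries, and of these 47 were called lower and 2 higher (median log2 fold change -1.36). Another 37 reached 5 RPKM in both control libraries and in neither knockout library and so had to be lower. The 2 that passed in knockout libraries only had to be higher, and 7 passed in at least 1 library of each group. The count of 90 is therefore a description of the chosen genes and is to be set beside the 46.9% of genes under the same rule, not beside an even split. For the 54 that passed in all 4 libraries no matching share of other genes was worked out.

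Falls of at least 2-fold were common. Among the 90 genes called lower, the ratio of mean RPKM corresponded to a fall of 1.33-fold to 9.55-fold with a median of 3.48-fold. In 30 it was 4-fold or more, in 42 between 2-fold and 4-fold, and in 18 under 2-fold. A log2 fold change of -1 or less was met by 65 of the 100 genes, by 9.24% of all genes tested and by 19.8% of those at the level rule. The RPKM values of the groups did not overlap, with the knockout lower, in 92 of the 100 genes, against 38.0% of all genes tested and 54.8% at the level rule. With the knockout higher they did not overlap in 6, against 51.8% and 36.9%.

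**Figure D1:**
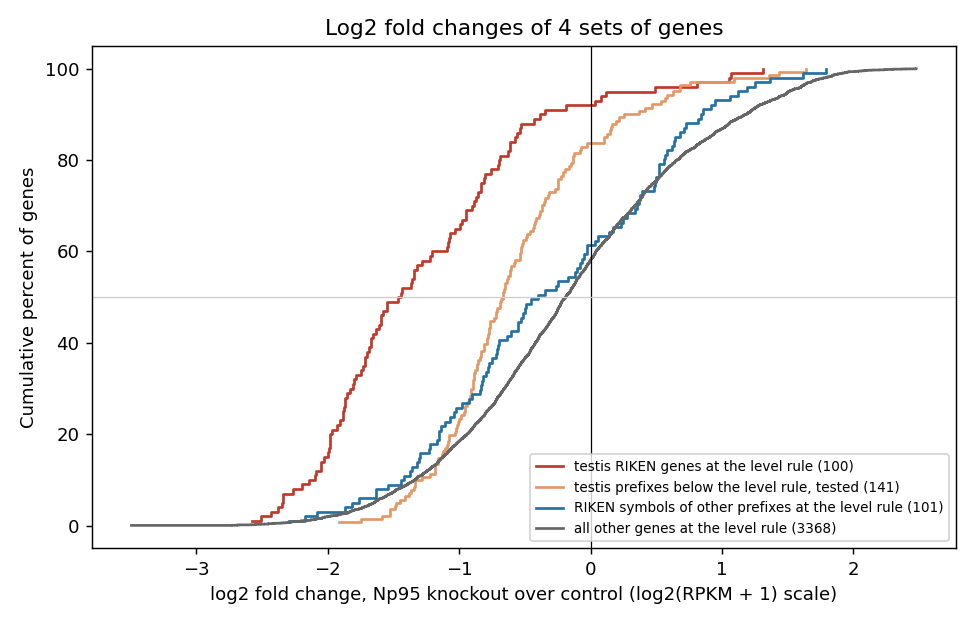
Cumulative percent of genes (vertical axis) against log2 fold change of Np95 knockout over control on the log2(RPKM + 1) scale (horizontal axis). The 100 testis RIKEN genes have a median of -1.45, the 141 tested genes of the same prefixes below the level rule -0.67, the 101 RIKEN genes of other prefixes -0.40, and the 3368 other genes at the level rule -0.19.

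Genes named in the same way but with other prefixes lay closer to the rest. That set was defined by prefix alone, and the tissue of its clone libraries was not checked. Of 101 symbols ending in Rik with other prefixes at the level rule, 52 were called lower and 31 higher, and the median log2 fold change was -0.40. Testis-prefix genes below the level rule that could still be tested numbered 141, of which 103 were called lower and 12 higher, with a median of -0.67. On the log2(RPKM + 1) scale the change of low genes is understated. Without the 100 genes, the 3368 others at the level rule had 1535 called lower and 1064 higher, and a median of -0.19. No test of the difference between these sets was made.

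Genes close to the level rule are given as values only. The genes just inside it by their second-highest RPKM were 4930452G13Rik (5.07), 1700019C18Rik (5.403), 4930503L19Rik (5.52), 1700018B08Rik (5.55) and 4930525D18Rik (5.77). Just outside it were 1700023F02Rik (4.77), 1700012C14Rik (4.72), 1700020N01Rik (4.71), 4930451G09Rik (4.70) and 4930599N23Rik (4.65). All 5 inside passed through control libraries only, so the rule itself placed both control libraries above both knockout libraries. Outside the rule both control libraries were above both knockout libraries for all but 4930599N23Rik. That gene had 4.65 and 6.63 RPKM in knockout libraries, against 1.51 and 1.62 RPKM in control libraries.

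Promoter sequence was taken from RefSeq (GRCm38.p6) as 300 bases, 250 before the annotated start and 50 after it, for 80 of the 100 genes. None of the 9 transcribed pseudogenes had such a window. The windows below show the range among the protein-coding and noncoding genes with large falls and a pair of X-linked genes called higher, which the results return to. Each is written 5′ to 3′ on the strand of the gene, and capitals mark CpG dinucleotides, the bases that maintenance methylation acts on. 1700020D05Rik, coding, lies at chr19:5503738-5504037 on the minus strand and holds 14 CpG. 4930488L21Rik, an lncRNA, lies at chr8:93813506-93813805 on the minus strand and holds 20. 4930483J18Rik, an lncRNA, lies at chr15:81190603-81190902 on the plus strand and holds 33. 4933402N22Rik, coding, lies at chr5:11917793-11918092 on the plus strand and holds 1. The X-linked coding genes are 4933402E13Rik at chrX:62283249-62283548, with 6, and 4930550L24Rik at chrX:58911211-58911510, with 9, both on the plus strand.
1700020D05Rik: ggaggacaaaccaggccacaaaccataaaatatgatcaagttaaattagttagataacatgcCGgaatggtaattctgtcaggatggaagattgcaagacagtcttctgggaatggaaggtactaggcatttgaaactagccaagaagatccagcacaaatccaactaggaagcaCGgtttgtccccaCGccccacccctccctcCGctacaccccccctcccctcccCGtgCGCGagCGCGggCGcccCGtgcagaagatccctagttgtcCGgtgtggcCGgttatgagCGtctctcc
4930488L21Rik: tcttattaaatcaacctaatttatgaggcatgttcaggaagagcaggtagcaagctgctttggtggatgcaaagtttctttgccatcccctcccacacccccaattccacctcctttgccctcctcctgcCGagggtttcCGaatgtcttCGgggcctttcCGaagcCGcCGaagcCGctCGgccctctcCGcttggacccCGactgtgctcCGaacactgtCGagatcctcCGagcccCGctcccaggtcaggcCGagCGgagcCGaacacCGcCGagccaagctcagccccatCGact
4930483J18Rik: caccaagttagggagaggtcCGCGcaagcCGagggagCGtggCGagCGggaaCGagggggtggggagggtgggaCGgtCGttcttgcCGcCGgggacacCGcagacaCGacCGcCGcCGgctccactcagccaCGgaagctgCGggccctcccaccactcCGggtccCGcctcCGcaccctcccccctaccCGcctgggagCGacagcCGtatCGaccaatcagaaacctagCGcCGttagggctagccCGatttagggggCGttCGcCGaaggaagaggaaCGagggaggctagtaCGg
4933402N22Rik: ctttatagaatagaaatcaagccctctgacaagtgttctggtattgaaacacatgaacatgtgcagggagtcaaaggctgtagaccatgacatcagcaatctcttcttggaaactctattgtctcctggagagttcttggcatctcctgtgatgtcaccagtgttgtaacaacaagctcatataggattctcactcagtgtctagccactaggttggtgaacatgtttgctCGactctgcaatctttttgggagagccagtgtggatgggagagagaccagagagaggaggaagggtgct
4933402E13Rik: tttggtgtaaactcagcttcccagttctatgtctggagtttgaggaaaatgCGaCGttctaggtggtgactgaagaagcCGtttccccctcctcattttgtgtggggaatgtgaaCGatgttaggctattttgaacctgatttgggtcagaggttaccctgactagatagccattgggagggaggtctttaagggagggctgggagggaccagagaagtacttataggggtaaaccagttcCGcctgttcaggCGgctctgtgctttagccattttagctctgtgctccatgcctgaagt
4930550L24Rik: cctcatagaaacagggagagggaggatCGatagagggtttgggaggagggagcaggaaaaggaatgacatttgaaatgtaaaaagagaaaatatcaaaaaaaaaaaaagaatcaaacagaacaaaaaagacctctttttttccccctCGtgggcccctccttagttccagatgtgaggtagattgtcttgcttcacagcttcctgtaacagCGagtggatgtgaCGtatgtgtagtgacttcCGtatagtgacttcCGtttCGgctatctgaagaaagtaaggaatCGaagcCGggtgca

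Protein-coding genes were 40 of the 100, and 36 of them were called lower, 2 higher and 2 not called, with a median log2 fold change of -1.51. Other protein-coding genes at the level rule numbered 3063, with 1399 called lower, 989 higher and a median of -0.18. The largest fall of the 100 on the log2 scale was in 1700020D05Rik, on chromosome 19, for which RefSeq gives the MAGE family name mage-g2. It had 49.6 and 28.2 RPKM in Np95 knockout libraries, against 228.9 and 228.5 RPKM in control libraries, a 5.88-fold fall (log2 fold change -2.58, SE 0.28, limma adjusted p = 0.00152). The knockout libraries differed from each other by more than the control libraries did, and both lay far below them.

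4930544G11Rik, on chromosome 6 and tagged as a retrogene by GENCODE, had 42.9 and 25.6 RPKM in knockout libraries, against 166.0 and 177.5 RPKM in control libraries, 5.02-fold lower. 1700029P11Rik, on chromosome 15, had 130.5 and 79.0 RPKM in knockout libraries and 353.8 and 361.8 RPKM in control libraries. 1700029F12Rik, on chromosome 13, had 6.81 and 4.90 RPKM in knockout libraries, against 29.6 and 28.3 RPKM in control libraries, a log2 fold change of -2.14. In all 3 the control libraries lay above both knockout libraries by more than either pair differed. Of the coding genes at low level, 4933405L10Rik, on chromosome 8, had 2.56 and 1.26 RPKM in knockout libraries and 13.1 and 13.8 RPKM in control libraries, with about 11.9 read pairs in knockout replicate 2. It passed the level rule through control libraries only. So did 4933402N22Rik, on chromosome 5, with 2.46 and 1.24 RPKM in knockout libraries, against 10.48 and 10.64 RPKM in control libraries.

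Of the 100, 6 have since received gene names in RefSeq, and all 6 were called lower, as were 90 of the 100 as a whole. Ppp1r14bl, listed as 4933415F23Rik and named as a relative of an inhibitor of protein phosphatase 1, had 50.7 and 31.9 RPKM in knockout libraries, against 167.5 and 167.2 RPKM in control libraries, 4.05-fold lower (log2 fold change -2.03, limma adjusted p = 0.00168). Slc6a21, listed as 1700039E15Rik and named in the solute carrier 6 family of transporters, had 11.3 and 7.48 RPKM in knockout libraries and 30.8 and 29.1 RPKM in control libraries, a 3.18-fold fall. Stpg4, listed as 1700011E24Rik, is known for a part in the demethylation of the paternal genome in zygotes. It had 2.33 and 1.37 RPKM in knockout libraries, against 7.31 and 7.17 RPKM in control libraries. Lypd9, listed as 4930504O13Rik and named for a Ly6/Plaur domain, had 2.38 and 1.44 RPKM in knockout libraries and 7.15 and 6.43 RPKM in control libraries. Stpg4 and Lypd9 both passed the level rule through control libraries only.

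Smaller falls were found in the remaining pair of renamed genes. Taf7l2, listed as 4933416C03Rik and named as a relative of the TFIID subunit Taf7, had 77.8 and 58.4 RPKM in knockout libraries, against 138.7 and 139.1 RPKM in control libraries, 2.04-fold lower (log2 fold change -1.03, limma adjusted p = 0.00412). That call was lost with quantile normalization (log2 fold change -0.08, adjusted p = 0.645). Tedc1, listed as 4930427A07Rik and part of the tubulin epsilon and delta complex of centrioles, had 6.34 and 5.64 RPKM in knockout libraries, against 8.86 and 7.99 RPKM in control libraries, 1.41-fold lower (log2 fold change -0.43, limma adjusted p = 0.0127). Its call was lost with equal RPKM sums (adjusted p = 0.57) and without control replicate 1 (adjusted p = 0.101). A further pair, chosen after their values were seen, has names as RefSeq synonyms. Liat1, listed as 1700016K19Rik and known as a ligand of the arginyltransferase Ate1, had 7.89 and 5.39 RPKM in knockout libraries, against 29.1 and 28.4 RPKM in control libraries, 4.33-fold lower. Tryx5, listed as 1700074P13Rik, had 3.43 and 1.83 RPKM in knockout libraries and 11.6 and 12.3 RPKM in control libraries. It passed the level rule through control libraries only and so had to be lower.

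Long noncoding RNAs were 51 of the 100. Of them 46 were called lower, 3 higher and 2 not called, and the median log2 fold change was -1.37. For the 102 other lncRNAs at the level rule 66 were called lower and 19 higher, with a median of -0.71. The highest RPKM of all 100 genes in controls was that of the lncRNA 1700008K24Rik, on chromosome 17, with 150.4 and 91.0 RPKM in knockout libraries, against 456.7 and 479.3 RPKM in control libraries, 3.88-fold lower. 4933427E11Rik, on chromosome 15, had 12.6 and 6.90 RPKM in knockout libraries, against 54.7 and 61.2 RPKM in control libraries, 5.96-fold lower (log2 fold change -2.51, SE 0.27, limma adjusted p = 0.00152). 4930488L21Rik, on chromosome 8, had 15.8 and 7.48 RPKM in knockout libraries and 61.3 and 60.9 RPKM in control libraries, 5.26-fold lower. In these 3 lncRNAs, too, the lower knockout library was replicate 2.

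Further lncRNAs with large falls were less abundant. 1700108J01Rik, on chromosome 14, had 5.003 and 1.88 RPKM in knockout libraries, against 21.3 and 21.8 RPKM in control libraries, and 4933432K03Rik, on chromosome 7, 6.67 and 3.63 RPKM in knockout libraries, against 25.5 and 23.5 RPKM in control libraries. 1700003I22Rik, on chromosome 1, had 4.55 and 2.66 RPKM in knockout libraries, against 19.4 and 17.1 RPKM in control libraries. 1700026J14Rik, on chromosome 6, had 1.31 and 0.636 RPKM in knockout libraries, against 7.92 and 7.89 RPKM in control libraries, and its knockout values rest on about 13 and 2.7 read pairs. 4930483J18Rik, whose window above holds the most CpG of those printed, had 1.55 and 0.762 RPKM in knockout libraries and 8.11 and 6.84 RPKM in control libraries. The last 3 of these passed the level rule through control libraries only. In knockout replicate 2 the values of 1700003I22Rik and 4930483J18Rik rest on about 15.7 and 7.0 read pairs. No function of these lncRNAs is given by the annotation used.

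Transcribed pseudogenes were 9 of the 100, with 8 called lower, 1 not called and a median log2 fold change of -1.58. For the 59 other transcribed pseudogenes at the level rule 30 were called lower and 17 higher, and the median was -0.30. The one with the highest RPKM was 1700123L14Rik, on chromosome 6, to which RefSeq gives the synonyms Nup50 and Npap60, names of a nucleoporin, so reads of a near-identical parent gene could be split with it. It had 95.4 and 47.1 RPKM in knockout libraries, against 348.5 and 338.8 RPKM in control libraries, 4.82-fold lower. The largest fall of the 100 as a ratio was in the pseudogene 1700065I16Rik, on chromosome 15, which had 0.90 and 0.71 RPKM in knockout libraries, against 6.92 and 8.43 RPKM in control libraries, 9.55-fold lower, and passed the level rule through control libraries only. Its knockout values rest on about 23.6 and 8.0 read pairs, so the size of this ratio is uncertain.

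**Figure D2:**
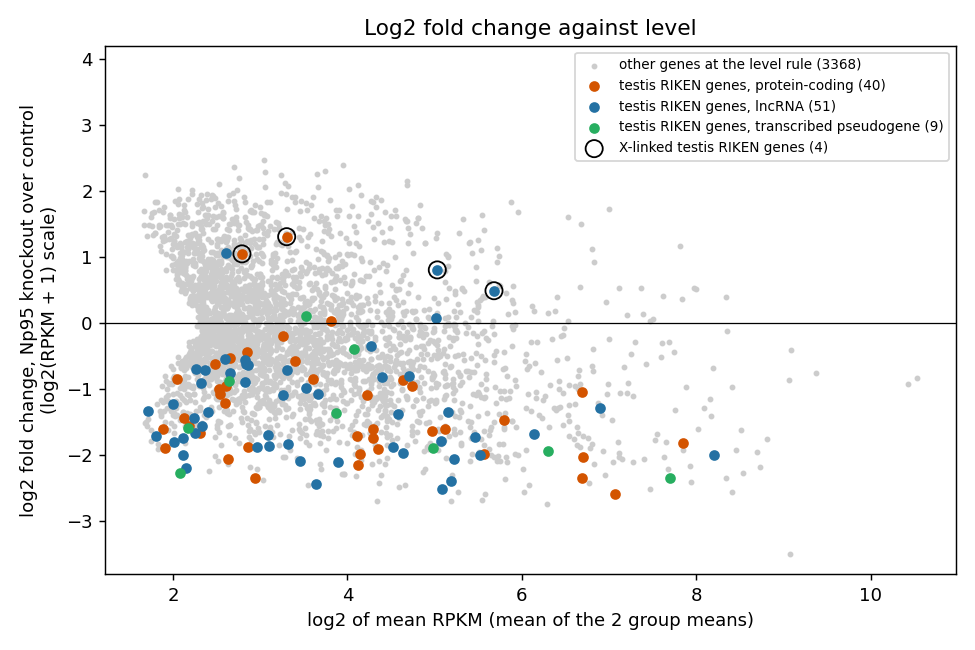
Log2 fold change of Np95 knockout over control on the log2(RPKM + 1) scale (vertical axis) against log2 of mean RPKM (horizontal axis) for the 100 testis RIKEN genes, coloured by class, and the 3368 other genes at the level rule (grey). Genes of each class lie mostly below 0 over the whole range of level, and the 4 X-linked genes (ringed) lie above 0.

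Of the 5 genes called higher, 4 lie on the X chromosome, which are all the X-linked genes among the 100. 4933402E13Rik, a coding gene, had 13.5 and 15.5 RPKM in Np95 knockout libraries, against 4.73 and 5.77 RPKM in control libraries, 2.76-fold higher (log2 fold change 1.31, SE 0.13, limma adjusted p = 0.00141). 4930550L24Rik, for which RefSeq gives the MAGE family name mage-k1, had 9.11 and 10.2 RPKM in knockout libraries, against 3.75 and 4.57 RPKM in control libraries, 2.33-fold higher, and passed the level rule through knockout libraries only. These 2 genes have the X-linked windows printed above. The other 2, which RefSeq calls lncRNAs and GENCODE calls protein-coding, were the more abundant.

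1700018G05Rik had 44.6 and 39.1 RPKM in knockout libraries, against 21.6 and 25.5 RPKM in control libraries, 1.78-fold higher (log2 fold change 0.81, limma adjusted p = 0.00404). 1700011M02Rik had 54.5 and 66.0 RPKM in knockout libraries, against 43.9 and 40.8 RPKM in control libraries, 1.42-fold higher (log2 fold change 0.49, limma adjusted p = 0.0237). The call of 1700011M02Rik was lost with equal medians (adjusted p = 0.101) and without control replicate 1 (0.10) or replicate 2 (0.165). The median ratio of the 4 genes was 2.05. Other X-linked genes at the level rule numbered 84, with 80 called higher, 3 called lower and a median ratio of 3.41. Among the 96 genes outside the X chromosome 90 were called lower, 1 higher and 5 not called.

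The single gene called higher outside the X chromosome was the lncRNA 4930414N06Rik, on chromosome 19, which had 7.85 and 9.43 RPKM in knockout libraries, against 3.65 and 3.52 RPKM in control libraries, 2.41-fold higher. It passed the level rule through knockout libraries only. It lies antisense to Slf2, a partner of the SMC5/6 complex that is listed as Fam178a and had 3.02 and 3.69 RPKM in knockout libraries, against 1.44 and 1.32 RPKM in control libraries, 2.44-fold higher. The library kit does not mark strand, so reads of this pair cannot be told apart.

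Not called were 5 genes, each in all 4 libraries above 5 RPKM. 4930413G21Rik had 15.8 and 18.01 RPKM in knockout libraries, against 23.4 and 20.1 RPKM in control libraries (log2 fold change -0.34, limma adjusted p = 0.0524). 1700123O20Rik had 8.94 and 8.89 RPKM in knockout libraries, against 10.02 and 10.58 RPKM in control libraries (log2 fold change -0.19, limma adjusted p = 0.0946). 1700017B05Rik, 1700001L05Rik and 4930594C11Rik had log2 fold changes of 0.04, 0.08 and 0.12, and limma adjusted p-values of 0.74, 0.515 and 0.258. These calls depended on the settings. With equal RPKM sums the last 3 were called higher, and with equal medians the first 2 were called lower. Without knockout replicate 2, 4930413G21Rik was called lower (limma adjusted p = 0.038).

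**Figure D3:**
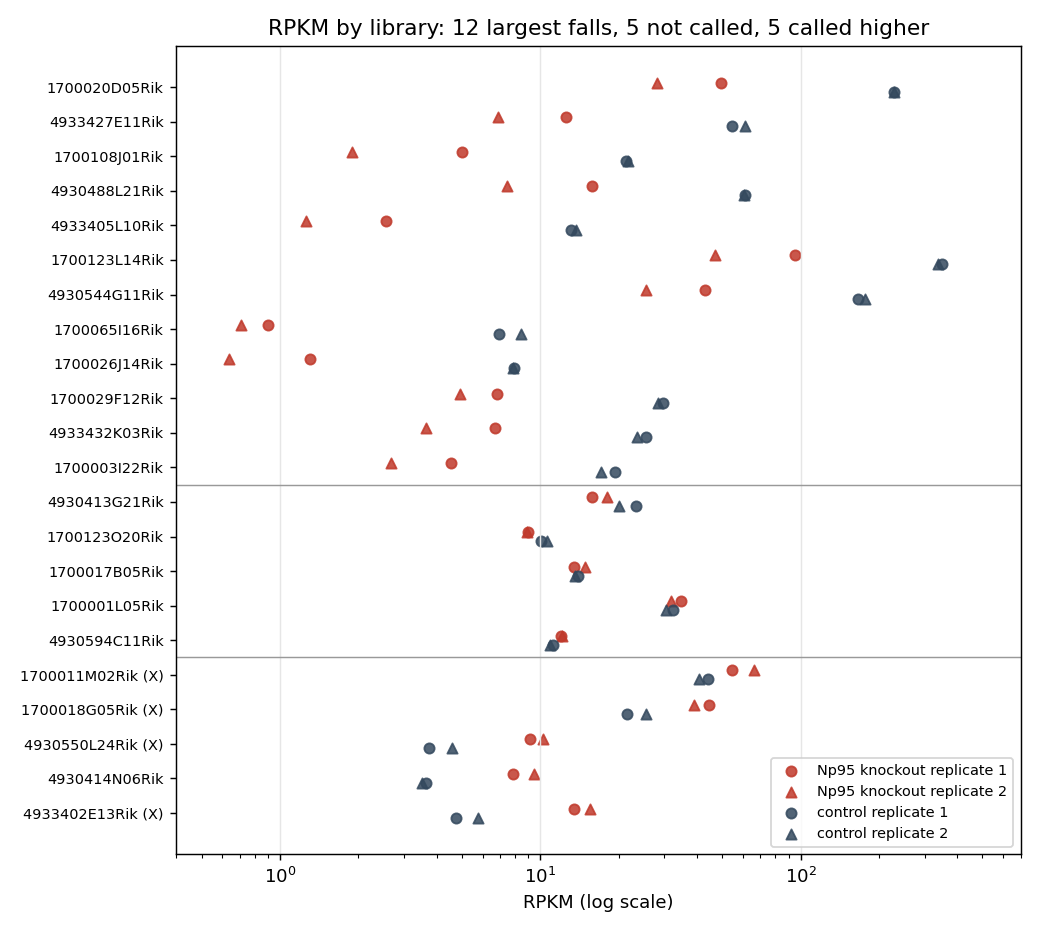
RPKM (horizontal axis, log scale) in each of the 4 libraries for the 12 genes named for the largest falls, the 5 not called and the 5 called higher, with Np95 knockout in red above control in dark blue in each row. Circles are replicate 1 and triangles replicate 2, and (X) marks X-linked genes. Only genes whose groups do not overlap were drawn in the upper and lower blocks. By that choice every knockout value lies left of both control values in the upper block, and right of both in the lower block.

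The knockout libraries did not show the fall to the same depth. RPKM was lower in knockout replicate 2 than in knockout replicate 1 for 89 of the 100 genes, and for 59.9% of all genes at the level rule. The median ratio to the control mean was 0.377 in knockout replicate 1 and 0.253 in knockout replicate 2. Between the 2 knockout libraries the median size of the log2(RPKM + 1) difference per gene was 0.381 for the 100 genes and 0.161 for all genes at the level rule, and between the 2 control libraries 0.080 and 0.076. In knockout replicate 2 the Sertoli cell marker sum was the higher of the pair and the pachytene and round spermatid sums the lower, as given above, and their part in this difference was not tested. Without knockout replicate 2 there were 89 genes called lower and a median log2 fold change of -1.29. Without knockout replicate 1 there were 90 and a median of -1.67.

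**Figure D4:**
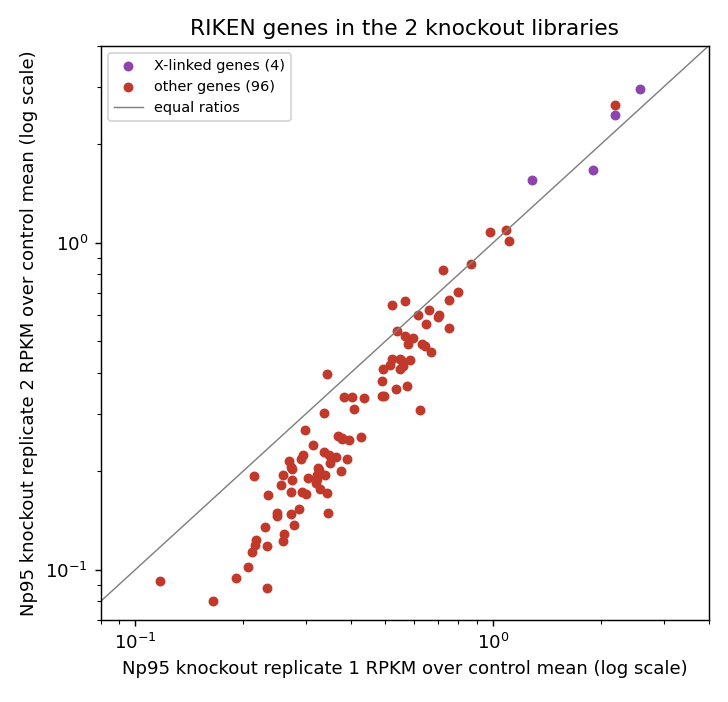
RPKM in Np95 knockout replicate 2 over the control mean (vertical axis, log scale) against the same ratio in Np95 knockout replicate 1 (horizontal axis, log scale) for the 100 genes. Points below the line of equal ratios, 89 of the 100, had less RNA in replicate 2, and the 4 X-linked genes are in purple.

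Genes of the 4 prefixes and of different length differed in their medians. The median log2 fold change was -1.63 for the 58 genes of prefix 1700, -1.80 for the 13 of prefix 4933, -0.89 for the 26 of prefix 4930 and -0.56 for the 3 of prefix 4921. By gene span in RefSeq, the 33 genes under 2000 bases had a median of -1.81, the 43 from 2000 to 10000 bases -1.37, and the 24 of 10000 bases or more -0.98. Calls of lower were 30 of 33, 40 of 43 and 20 of 24 in these span classes, beside 46.9% of all genes at the level rule. Other genes were not split by span, so whether they differ by length in the same way is not shown. No test of the difference between these classes was made.

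Many of the genes shared their span with another gene. Of the 94 genes found in the GENCODE annotation, 48 overlapped another gene, 44 of them on the opposite strand and 6 on the same strand, and 46 overlapped none. Among those with an overlap 46 were called lower and 1 higher (median log2 fold change -1.35), and among those without 40 were called lower and 4 higher (median -1.60). Of all genes at the level rule 46.9% were called lower, and these were not split by overlap. The overlapping genes that could be tested made 34 pairs with 29 of the RIKEN genes. Of these overlapping genes 16 were called lower, 10 higher and 8 not called, with a median ratio of 0.942. Among all genes tested 30.5% were called lower and 43.3% higher. Across the 34 pairs Spearman's rho between the log2 fold changes of the RIKEN gene and its overlapping gene was 0.49. It is given as a description, and the part of shared reads in it was not tested.

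In 9 of the 34 pairs the RIKEN gene was called lower and the overlapping gene higher. This count is to be set beside the 90 of 100 RIKEN genes called lower and the 43.3% of all genes tested called higher. 1700001G11Rik had 10.7 and 8.01 RPKM in knockout libraries, against 36.6 and 36.9 RPKM in control libraries, while Trim35, a RING-type ubiquitin ligase gene on the opposite strand, had 13 and 16.8 RPKM in knockout libraries, against 6.53 and 6.29 RPKM in control libraries. 1700008J07Rik had a log2 fold change of -1.37 where Srcap, the chromatin remodeller on the opposite strand, had 0.75. 1700028B04Rik had -1.36 where Samd4b, an RNA-binding protein gene, had 0.72. In 16 pairs both were called lower, among them 4933431E20Rik, with a log2 fold change of -1.97, and Gstm5, a glutathione transferase gene, with 95.9 and 61.0 RPKM in knockout libraries and 383.1 and 438.3 RPKM in control libraries. 1700020D05Rik overlaps Snx32, a sorting nexin gene, on the same strand, which had 4.01 and 2.60 RPKM in knockout libraries, against 16.2 and 16.3 RPKM in control libraries. Reads shared by such pairs cannot be assigned.

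**Figure D5:**
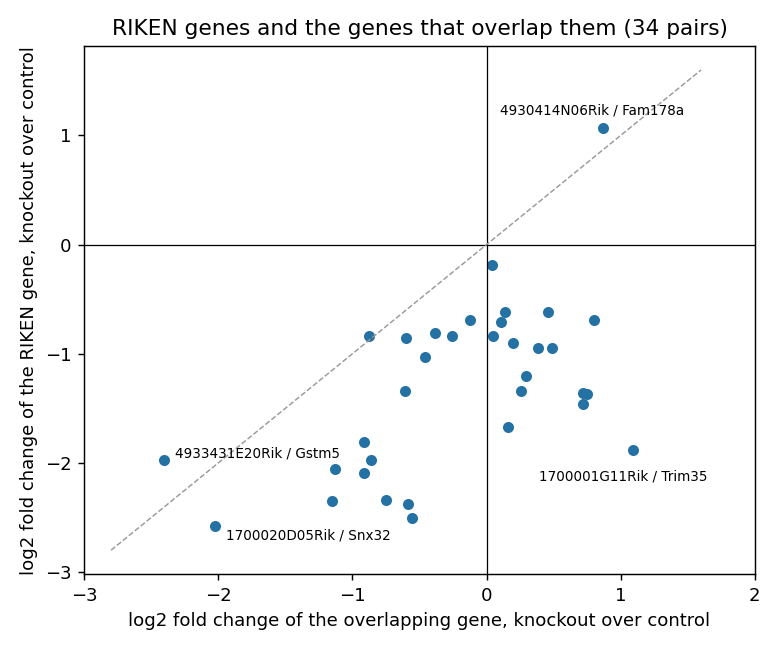
Log2 fold change of the RIKEN gene (vertical axis) against that of the gene overlapping it (horizontal axis), both Np95 knockout over control on the log2(RPKM + 1) scale, for 34 pairs of 29 RIKEN genes. All but 1 of the pairs lie below 0 on the vertical axis, while the overlapping genes spread to both sides of 0, and the dashed line marks equal change.

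Divergent neighbours, which start within 1000 bases on the other strand, were found for 16 of the genes, and 9 of these pairs were tested. The neighbours were called lower in 4, higher in 3 and not called in 2, beside 30.5% lower and 43.3% higher among all genes tested. 1700028J19Rik had 26.4 and 14.7 RPKM in knockout libraries, against 67.2 and 67.5 RPKM in control libraries, while its neighbour 2410002F23Rik had 21.6 and 24.1 RPKM in knockout libraries, against 6.59 and 6.89 RPKM in control libraries. 1700026J14Rik was 8.14-fold lower beside Atp6v0e2, a gene of the vacuolar proton pump, which was 1.46-fold higher. On the X chromosome 1700011M02Rik and its neighbour Dmrtc1a were both called higher, with log2 fold changes of 0.49 and 1.02.

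CpG content of the promoter windows varied widely, as the printed ones show. An observed over expected CpG ratio of 0.5 or more was met by 49 of the 80 windows (61.3%), by 2260 of the 2598 windows of other genes at the level rule (87.0%) and by 11499 of all 27025 windows (42.6%). The median number of CpG per window was 13, 22 and 7 in these sets. Among the 49 genes with CpG-rich windows 44 were called lower and the median log2 fold change was -1.09, and among the 31 with CpG-poor windows 28 were called lower and the median was -1.71. For other genes at the level rule 44.6% with CpG-rich and 56.2% with CpG-poor windows were called lower, and the corresponding medians were -0.15 and -0.56. Across the 80 genes Spearman's rho between log2 fold change and the CpG ratio was 0.26, given as a description over genes that share all 4 libraries. CpG counts say nothing of methylation, which was not measured here.

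A search of both strands of the 80 windows for 7 short sequences gave the following shares, which describe the letters of these windows only. The MYB family sequence AACNGTT was in 4 windows (5%), against 3.70% of windows of other genes at the level rule and 4.36% of all windows. The cAMP response element TGACGTCA was in 3 (3.75%), against 4.08% and 1.88%, and its variant TGACGTAA in 1 (1.25%), against 1.23% and 0.533%. The RFX sequence GTTGCCAT was in 3 (3.75%), against 1.54% and 1.32%, and the NF-Y sequence CCAAT in 31 (38.8%), against 42.5% and 37.9%. The E2F sequence TTCCCGCC was in 2 (2.50%), against 5.004% and 2.24%, and TATAAA in 6 (7.5%), against 7.97% and 14.2%. No motif contains another as spelled here. The 4 genes with the MYB sequence, 4933405L10Rik, 4933432K03Rik, 4933404O12Rik and 4930524B15Rik, were all called lower, as were 68 of the 76 without it. Of the 4, 4933405L10Rik and 4933404O12Rik passed the level rule through control libraries only and so had to be lower.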

How the data were processed

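RNA sequencing of 2 Np95 knockout and 2 control spermatocyte libraries was analysed from the table of RPKM values that the authors deposited, 1 column per library and 24444 rows. Bowtie2 and the build mm9 are named in the submitters' processing notes. How reads were counted, and on which annotation, is not given in the sources used here. Low values were whole multiples, within 0.05, of 1 read over the gene span for 60.0% to 61.8% of values per library and over exon length for 11.0% to 11.5%, so the span was the divisor. Whole reads were not recovered for the rest, so no count test was run.

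Left out were 27 rows whose symbol had turned into a date and 29 rows that repeated a symbol at a lower level. The 9099 genes at 1 RPKM or above in at least 2 libraries were tested as log2(RPKM + 1), a scale that understates changes of low genes, by limma 3.58.1 in R 4.3.3 with a mean-variance trend. The test was two-sided, p-values were adjusted by Benjamini-Hochberg, and calls needed an adjusted p below 0.05. The same script was tested on simulated data. Folds are ratios of mean RPKM over 2 libraries. An exact permutation test of 2 against 2 cannot reach a p of 0.05, so none was used. Groups came from sample titles. Replicate numbers were not taken to pair samples.

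The genes and lists were chosen with earlier results of these data known. The text names Uhrf1, up to 12 genes each with the greatest falls and rises (log2 fold change) among called genes whose groups do not overlap, genes renamed in RefSeq and those next to the level rule. Genes named outside this rule were chosen after their values were seen: those not called, the most abundant, those named by a synonym, those with a printed window or a named neighbour, and those with the MYB sequence. Classes, spans, names and promoters came from RefSeq (GRCm38.p6) and overlaps from GENCODE M21. No coordinate of the authors' build was used. Alternatives were other pseudocounts, filters, scalings, a replicate block, limma without the trend, the loss of each library, stricter level rules and a minimum fold. Genes with no overlap, with 20 or more read pairs in each library or outside the X chromosome were added after seeing the data.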

Additional observations from a re-analysis of the deposited data

How the results depend on the processing

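Over the 13 alternative fits, 80 of the 100 genes kept their call, and 358 of 364 values of the genes that the naming rule chose kept direction and side of the threshold, the 6 exceptions being given above for 1700011M02Rik, Taf7l2 and Tedc1. Of the genes named outside that rule, the 5 not called were called under some settings, as given above, and 4930524B15Rik lost its call with equal RPKM sums (limma adjusted p = 0.125). Scaling moved the most: with equal RPKM sums 78 genes were called lower and 8 higher, and the median log2 fold change was -1.12 (-1.58 relative to all genes, whose own median was 0.46). Quantile normalization gave 85 and 7 with a median of -1.18, and equal medians 92 and 4. The sign of a log2 fold change differed from that as deposited for 3, 1 and 3 genes under these scalings. Leaving out each library in turn gave 87 to 90 genes called lower, 4 to 5 higher and medians of -1.67 to -1.29. At 10 RPKM in 2 libraries 54 of 62 genes were called lower and 3 higher. At 5 RPKM in all 4 libraries 47 of 54 were called lower and 2 higher. These counts are smaller because fewer genes enter, and no matching share of other genes was worked out for these stricter rules. With a log2 fold change of at least 1 in size the calls were 65 lower and 3 higher. Of the 46 genes that overlap no other, 40 were called lower, and outside the X chromosome 1 of 96 was called higher. Without a filter 87 were called lower.

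Replicate numbers gave a weak correlation of deviations between the groups (r = 0.11 over 9099 genes, across genes and not replicates). With so few libraries that value cannot decide whether samples of equal number share more than the number, and the labels do not say. With the replicate block 90 genes were called lower and 5 higher, with a median of -1.45, and no call of the 100 changed. Uhrf1 could not be tested under the 5 RPKM filter, which it does not reach. Depth limits the 13 genes with under 20 read pairs in knockout replicate 2; of the other 87, 77 were called lower.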
